A study of Drosophila melanogaster with 4 samples.

Results

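The step from 15 to 30 min of radicicol treatment was examined in Drosophila melanogaster S2 cells by comparing 2 polyadenylated RNA libraries, 1 per time point. S2 is a line grown from embryonic cells. Both cultures were growing in Schneider medium at 25 degrees and received 40 µM radicicol, dissolved in DMSO, for 15 or 30 min before harvest. The series follows how transcription responds over time when Hsp90 is inhibited, and it also holds a DMSO library, labelled 0 min, and a library after 60 min of radicicol. These other two libraries were not used to choose or call genes in the step and appear below only as levels set beside it. Of 14869 gene IDs in the files, 7856 passed a minimum mean of 20 counts in the 15 and 30 min libraries and make up the comparison. Membership was set by that mean alone, and 42 genes had a mean from 20 to just under 21 counts (median log2 fold 0.23, 30 min against 15 min) against 38 just outside it, from 19 to just under 20 (0.25).

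Hsp90 is an abundant cytosolic chaperone that folds kinases, receptors and other clients, and radicicol occupies its ATP pocket. Free Hsp90 also restrains heat shock factor, the transcription factor that binds heat shock elements in the promoters of chaperone genes. When the chaperone is inhibited or overwhelmed by unfolded protein, heat shock factor forms trimers, binds those promoters and releases RNA polymerase that is paused just downstream of the start site. The genes of Hsp70 and of the small heat shock proteins are the classic examples of this release in the fly.

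Gene counts summed to 28614983 in the 15 min library and 30859475 in the 30 min library. Levels are given as CPM, counts scaled by the effective library size (TMM), so they are shares of the RNA in a library and not amounts per cell. In a bulk library a change in every cell and a change in some of the cells cannot be told apart. With 1 library per time point there is no replicate error and no test is possible. Intervals are exact 95% counting intervals and cover counting error only, as reads were counted with no molecular identifiers and need not stand for separate molecules. A gene is called higher or lower at 30 min when its fold was at least 2 (log2 fold of 1) and the interval lay on that side of 0. The share of reads not aligned was 18.2% in the 15 min library and 21.5% in the 30 min library, against 44.1% in DMSO and 17.8% at 60 min. The labels call S2 cells embryonic in origin, and the line is known for haemocyte traits. Of 12 haemocyte marker genes 11 were measured, with summed levels of 10521 and 10369 CPM in the 15 and 30 min libraries, and none was past the rule. Of 14 markers of muscle, neurons, glia, fat body, gut, cuticle and germ line, 3 matched no ID and 7 were below the count filter, alphaTry with 0 counts in each library. The other 4 summed to 26.3 CPM at 15 min and 29.3 CPM at 30 min.

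Most transcripts were close to their 15 min level at 30 min. Of the 7856 genes, 88.6% were within 1.25-fold of their 15 min level, and the middle 95% of log2 folds ran from -0.43 to 0.57 around a median of -0.01, with 47.8% of genes above 0. There were 56 genes called higher, 0.713% of those measured, and 33 called lower, 0.42%. At a fold of at least 1.5, with the interval on that side of 0, 166 genes were higher (2.11%) and 72 lower (0.916%).

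**Figure D1:**
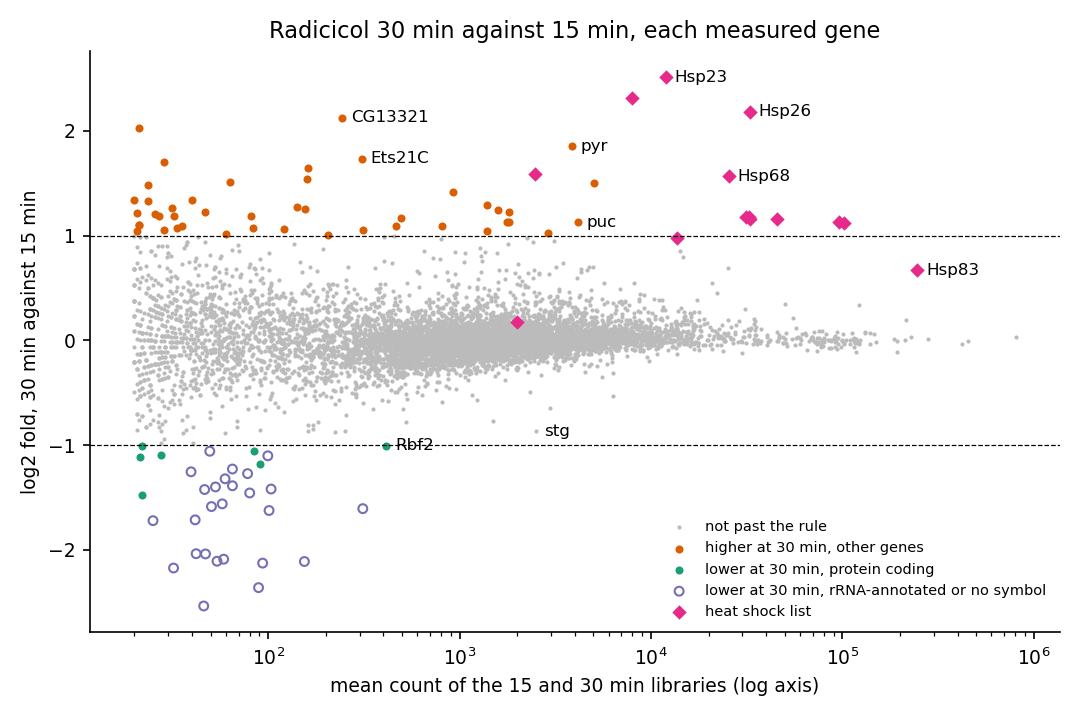
Log2 fold of the 30 min against the 15 min library (vertical axis) for each measured gene against its mean count in both libraries (horizontal log axis); dashed lines mark 2-fold. The heat shock list (magenta diamonds) lies at high counts with folds up to 2.51 for Hsp23, while the lower calls lie at low counts.

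Folds were more widely spread where few reads lay behind a gene. Among the 587 genes with a mean of 20 to under 50 counts, the middle 95% of log2 folds ran from -0.96 to 1.08 and 5.28% were called. For the 391 genes with 50 to under 100 counts it ran from -1.29 to 0.74, with 4 called higher and 15 lower. Among the 2541 genes with at least 2000 counts it ran from -0.16 to 0.41 and 0.59% were called, all of them higher. Of the 56 higher genes 18 had a mean under 50 counts and 34 had at least 100. For the 33 lower genes these numbers were 13 and 5.

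The heat shock genes were the group that stood furthest above their 15 min level. Of 14 measured genes in the heat shock list, 11 were called higher, against 0.713% of all genes, and the list's median log2 fold was 1.17 against -0.01 over all measured genes. All 14 values were above 0. Nearly identical Hsp70 copies make up 6 of the 14 and weigh on this median. Together the heat shock genes took 1.52% of all gene counts at 15 min (exact interval 1.51 to 1.52%) and 3.03% at 30 min (3.02 to 3.03%), and 31.1% of all gains in CPM over measured genes were theirs.

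The small heat shock proteins, ATP-independent chaperones that hold unfolded proteins in a soluble state, had the highest folds of the heat shock list. Hsp23 had 3433 counts (116 CPM) at 15 min and 20424 counts (660 CPM) at 30 min, a log2 fold of 2.51 (2.46 to 2.57), which is 5.71-fold and the highest value of the step. Hsp27 was at 86.7 CPM and 431 CPM, with a log2 fold of 2.31 (2.25 to 2.38). Hsp26 was at 387 CPM and 1757 CPM, with 2.18 (2.15 to 2.21). Each of these genes thus stood over 4 times its 15 min level, and their intervals do not reach those of any Hsp70 copy.

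In the other libraries the same genes were at 31.2 CPM (Hsp23), 13.7 CPM (Hsp27) and 40.3 CPM (Hsp26) in DMSO, and at 1579.7 CPM, 994.7 CPM and 3546 CPM at 60 min. Taken as shares of the increase from DMSO to 60 min on the CPM scale, 35.2% of that of Hsp23, 35.1% of that of Hsp27 and 39.1% of that of Hsp26 lay between 15 and 30 min. Only 5.46%, 7.44% and 9.90% lay before 15 min.

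The inducible Hsp70 genes, whose chaperone binds and refolds stress-damaged proteins, stood more than 2-fold above a level that was already high at 15 min. The 6 copies had 206792 counts at 15 min and 476171 at 30 min in sum, 6967 CPM and 15393 CPM, a 2.21-fold difference (log2 1.14, 1.14 to 1.15). Single copies ran from a log2 fold of 1.13 for Hsp70Aa (1.11 to 1.14) to 1.18 for Hsp70Bc (1.16 to 1.21). Reads may be split between copies of such similar sequence, so the sum is the safer value. Hsp68, a close relative of Hsp70, was at 420 CPM and 1247 CPM, with a higher log2 fold of 1.57 (1.54 to 1.60).

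The timing of Hsp70 differed from that of the small heat shock genes when the libraries were set side by side. Of the increase of the Hsp70 copies from DMSO (26.6 CPM) to 60 min (18312 CPM), 38.0% lay before 15 min, 46.1% between 15 and 30 min and the rest after 30 min. Per minute this is 463, 562 and 97.3 CPM in the 3 intervals. For Hsp23, Hsp26 and Hsp27 in sum it is 33.6, 151 and 109 CPM per minute. With 1 library per time these differences between intervals were not tested.

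Other members of the heat shock list ran from clearly higher to almost level. The co-chaperone gene stv (starvin), of the BAG family, had 1207 counts (40.7 CPM) and 3771 counts (122 CPM), a log2 fold of 1.58 (1.49 to 1.68). The Hsp90 gene, Hsp83, was at 6244 CPM and 9931 CPM, a log2 fold of 0.67 (0.66 to 0.68) and below 2-fold. Per kb of exon, Hsp83 read 2109 CPM at 15 min and 3355 CPM at 30 min. Hsp70Aa, 1 of the 6 Hsp70 copies that may share reads, read 886 and 1932 CPM per kb. In sum the 6 copies stood above Hsp83, at 6967 CPM and 15393 CPM before division by length. The noncoding RNA lncRNA:Hsromega, which gathers RNA-binding proteins in nuclear speckles under heat stress, had 303 CPM and 594 CPM, a log2 fold of 0.97 (0.94 to 1.01), just short of the rule. Hsf, the gene of heat shock factor, was at 62.0 CPM and 70.2 CPM, with 0.18 (0.09 to 0.27).

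Members below the count filter were Hsp67Ba, with 3 counts at 15 min and 13 at 30 min, and Hsp67Bc, with 2 and 13. No read was counted for Hsp22 or CG4456 in either library (0 counts), and DnaJ-1 matched no ID. Reads that overlapped more than 1 gene were set aside as ambiguous (1.09% at 15 min, 1.03% at 30 min). The entry for reads with no unique alignment held 0 in each library, so how such reads were handled is not known here. A value of 0 counts thus need not mean that a gene was silent, which was not tested. Outside the list, the noncoding RNA lncRNA:alphagamma-element:CR32865, from a repeat family that lies among the Hsp70 copies, had 89 and 221 counts, a log2 fold of 1.25 (0.89 to 1.62). Its reads may be shared with other copies of the repeat.

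**Figure D2:**
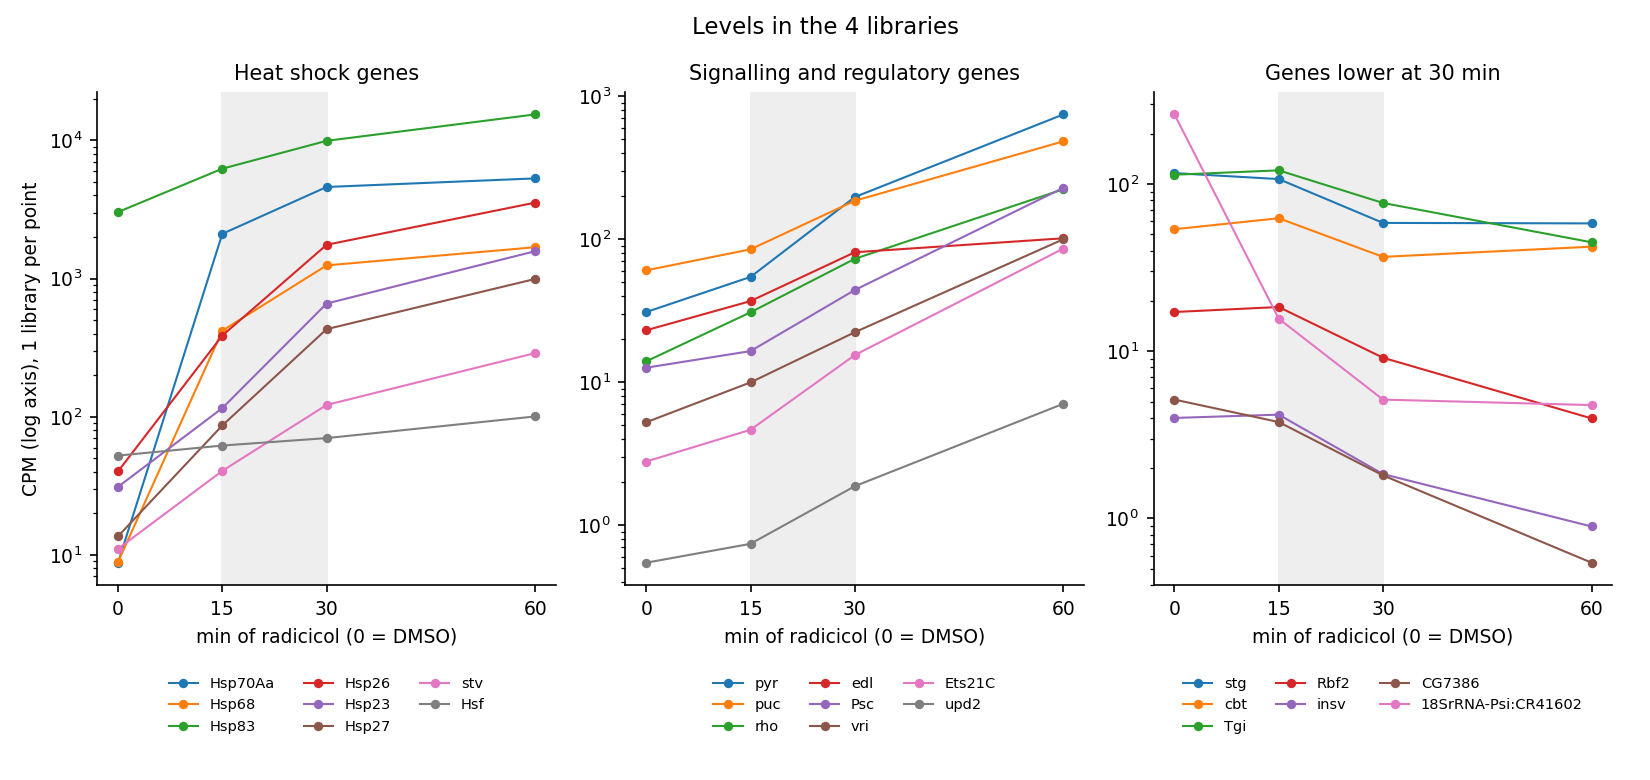
CPM in the 4 libraries (log axis, 1 library per point, 0 min is DMSO) of heat shock genes, of signalling and regulatory genes and of genes that were lower at 30 min; grey marks the step from 15 to 30 min. Hsp70Aa is at 2109.6 CPM by 15 min and at its highest, 5311.8 CPM, at 60 min, and Ets21C, Psc and vri are also at their highest at 60 min.

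The other chaperones and Hsp90 co-chaperones were mostly close to level. Of 27 measured members 2 were called higher and 0 lower, against 0.713% and 0.42% of all measured genes. The median log2 fold was 0.16, and 22 values were above 0 (21 or 22 under the other scalings), against 47.8% of all measured genes. The called genes were weakly expressed members of the Hsp70 family: Hsc70-2 with 48 and 114 counts (log2 fold 1.19, 0.69 to 1.71) and Hsc70-1 with 19 and 45 counts (1.18, 0.38 to 2.04). In DMSO and at 60 min Hsc70-2 had 1 and 213 counts, and Hsc70-1 had 11 and 53. The next highest was Hsp110, a nucleotide exchange factor of Hsp70, with 0.38, and the 7 measured subunits of the cytosolic chaperonin lay between 0.15 for CCT6 and 0.27 for CCT4.

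Among genes of the unfolded protein response of the ER, 0 of 21 were past the rule, with a median of 0.09. As 0.713% of all measured genes were called higher and 0.42% lower, 0 calls in a list of this size says little. Of the 21 values 18 were above 0 (15 or 19 under the other scalings), against 47.8% of all measured genes. The highest was Hsc70-3, the BiP chaperone of the ER lumen, at 1459 CPM and 1859 CPM (log2 fold 0.35, 0.33 to 0.37), followed by the eIF2alpha kinase gene PEK at 0.29 (0.23 to 0.35). Of 21 ubiquitin and autophagy genes 0 were past 2-fold and the median was 0.03. The polyubiquitin gene Ubi-p63E stood apart in that list, with 633 CPM and 1018 CPM and a log2 fold of 0.69 (0.66 to 0.71). The 31 measured proteasome subunits had folds from -0.09 for Prosalpha7 to 0.13 for Rpn6.

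**Figure D3:**
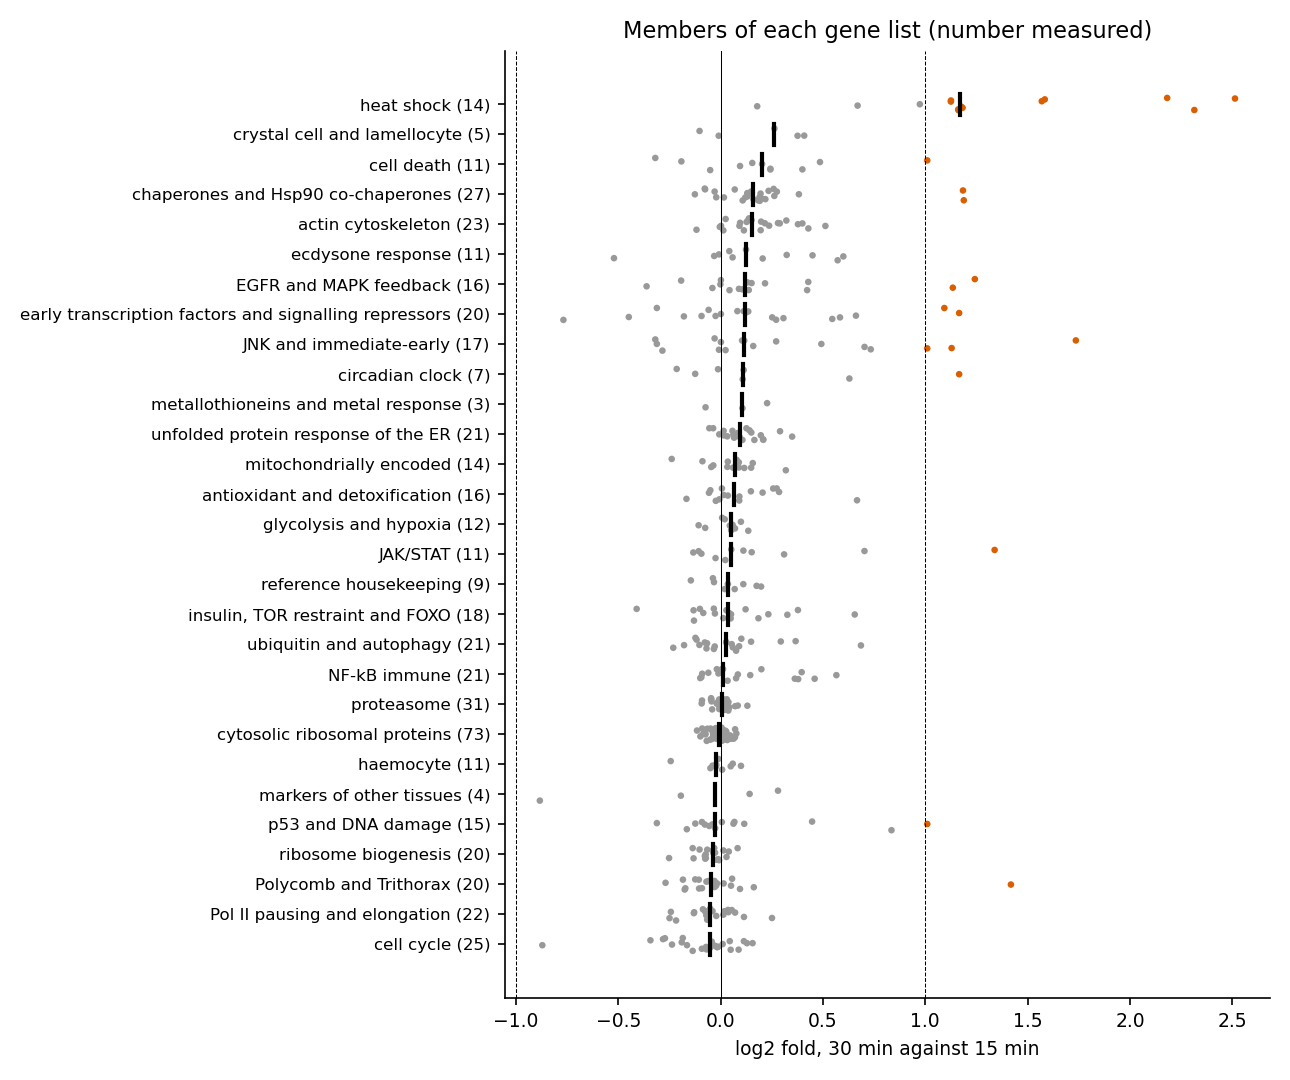
Log2 fold of each measured member (points; orange are past the 2-fold rule) of each gene list, with the list median as a black bar and the number of measured members in brackets. The heat shock list, with a median of 1.17, is the only one of these lists with a median above 0.3.

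Signalling genes called higher came from several pathways, with 1 to 3 members of each list. Over all measured genes 0.713% were called higher and 0.42% lower, so 0 or 1 call in a list of this size says little. The lists were chosen with earlier results of these data known, so larger counts of calls are no test either. JNK is a stress-activated kinase. Of 17 measured genes of the JNK and immediate-early list 3 were called higher and 0 lower, with a list median of 0.12. Ets21C, an ETS transcription factor gene that is a JNK target in fly tissues, had 138 and 479 counts, 4.65 CPM and 15.5 CPM, a log2 fold of 1.74 (1.46 to 2.02). The gene puc encodes the phosphatase that switches JNK off, and it had 85.0 CPM and 186 CPM, with 1.13 (1.06 to 1.20). The third, rpr, whose product releases caspases from inhibition, had 132 and 277 counts and 1.01 (0.71 to 1.32), at the edge of the rule: with libraries scaled by total gene counts its value was 0.96 and it was not called.

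Other members of that list were short of 2-fold or level. Mmp1, a secreted matrix protease, had 0.73 (0.66 to 0.81), and Jra, which encodes the fly Jun protein, had 0.70 (0.64 to 0.76). Its partner kay, the fly Fos, was at 0.27, the kinase genes bsk and hep were at 0.02 and -0.03, and the stress factor Atf3 was at -0.28. Among 11 measured cell death genes (median 0.20) rpr was the 1 called. It was also the 1 called among 15 genes of p53 signalling and DNA damage (median -0.03), with Corp next at 0.84 (0.41 to 1.27). With 0.713% of all measured genes called higher, 1 call in such a list says little.

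Ligand processing and feedback genes of the EGF receptor showed a similar pattern, with 2 of 16 measured members called higher and 0 lower. These stand against 0.713% and 0.42% of all measured genes, and the list median was 0.12. The protease gene rho, whose product cleaves EGF ligands to their active form, was at 30.8 CPM and 72.9 CPM, a log2 fold of 1.24 (1.13 to 1.35). The gene edl, an antagonist of ETS factors downstream of the receptor, was at 36.9 CPM and 81.1 CPM, with 1.13 (1.03 to 1.24). Between DMSO (23.1 CPM) and 60 min (102 CPM), 56.3% of the increase of edl lay in this step, against 20.1% for rho. The feedback inhibitor genes kek1 and sty were at 0.43 and 0.15, the repressor gene aop was at 0.42, and aos was at -0.36.

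The FGF ligand gene pyr, which acts through the receptor Heartless in mesoderm, had the highest fold outside the heat shock list among those whose mean count was 500 or more. It had 1617 and 6100 counts, or 54.5 CPM and 197 CPM, a log2 fold of 1.86 (1.78 to 1.94). Its level was 31.0 CPM in DMSO and 746 CPM at 60 min. The other measured FGF ligand, bnl, had 0.13. In the JAK/STAT list 1 of 11 measured genes was called higher and 0 lower, against 0.713% and 0.42% of all measured genes. The list median was 0.05. The 1 called was the cytokine gene upd2, with 22 and 58 counts and a log2 fold of 1.34 (0.61 to 2.12). Its relative upd3 had 122 and 207 counts and 0.70 (0.37 to 1.04), and the receptor and kinase genes dome and hop were at 0.02 and -0.02.

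Regulators of transcription were called in small numbers. Psc, a subunit of the Polycomb repressive complex PRC1, had 490 and 1365 counts, 16.5 CPM and 44.1 CPM, with a log2 fold of 1.42 (1.27 to 1.57). While 0.713% of all measured genes were called higher, it was the 1 gene past the rule among 20 measured Polycomb and Trithorax genes. Their median was -0.04. The next highest of them was pho, with 0.16. The clock repressor gene vri, with 296 and 692 counts, had 1.17 (0.97 to 1.37). Another clock repressor gene, cwo, was at 0.63 (0.49 to 0.77), and the other 5 measured clock genes lay between -0.21 and 0.11. Of 20 early transcription factors and signalling repressors 2 were called higher, against 0.713% of all measured genes. These were vri and the odd-skipped family gene bowl with 1.09 (0.94 to 1.25), and the list median was 0.12.

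The remaining genes among the highest 20 belong to no list. With a log2 fold of 2.12 (1.79 to 2.47), CG13321 was the highest gene outside the heat shock list, at 88 and 400 counts (2.96 CPM and 12.9 CPM). CG13893 had 2565 and 7564 counts, 86.4 CPM and 245 CPM, with an interval from 1.44 to 1.57. The nucleoside transporter gene Ent3 had 13 and 44 counts and 1.70 (0.78 to 2.72). Fa2h, a fatty acid hydroxylase gene, had 79 and 240 counts (1.54, 1.17 to 1.93), and Idua, the gene of the lysosomal enzyme iduronidase, had 80 and 202 counts (1.28, 0.90 to 1.67). The Notch regulator gene spdo had 76 and 248 counts and 1.65 (1.27 to 2.04).

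Also among the highest 20 were CG31798, with 32 and 95 counts and a log2 fold of 1.51, and some that rest on few reads. These were CG5246 (12 and 35 counts, 1.48), CG8907 (11 and 29 counts, 1.34) and the TRP channel gene wtrw (13 and 34 counts, 1.33). Of the 5 higher IDs without a symbol, FBgn0261548 had 784 and 1999 counts (1.29, 1.17 to 1.41) and FBgn0052186 had 8 and 34 counts (2.03, 0.89 to 3.35).

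**Figure D4:**
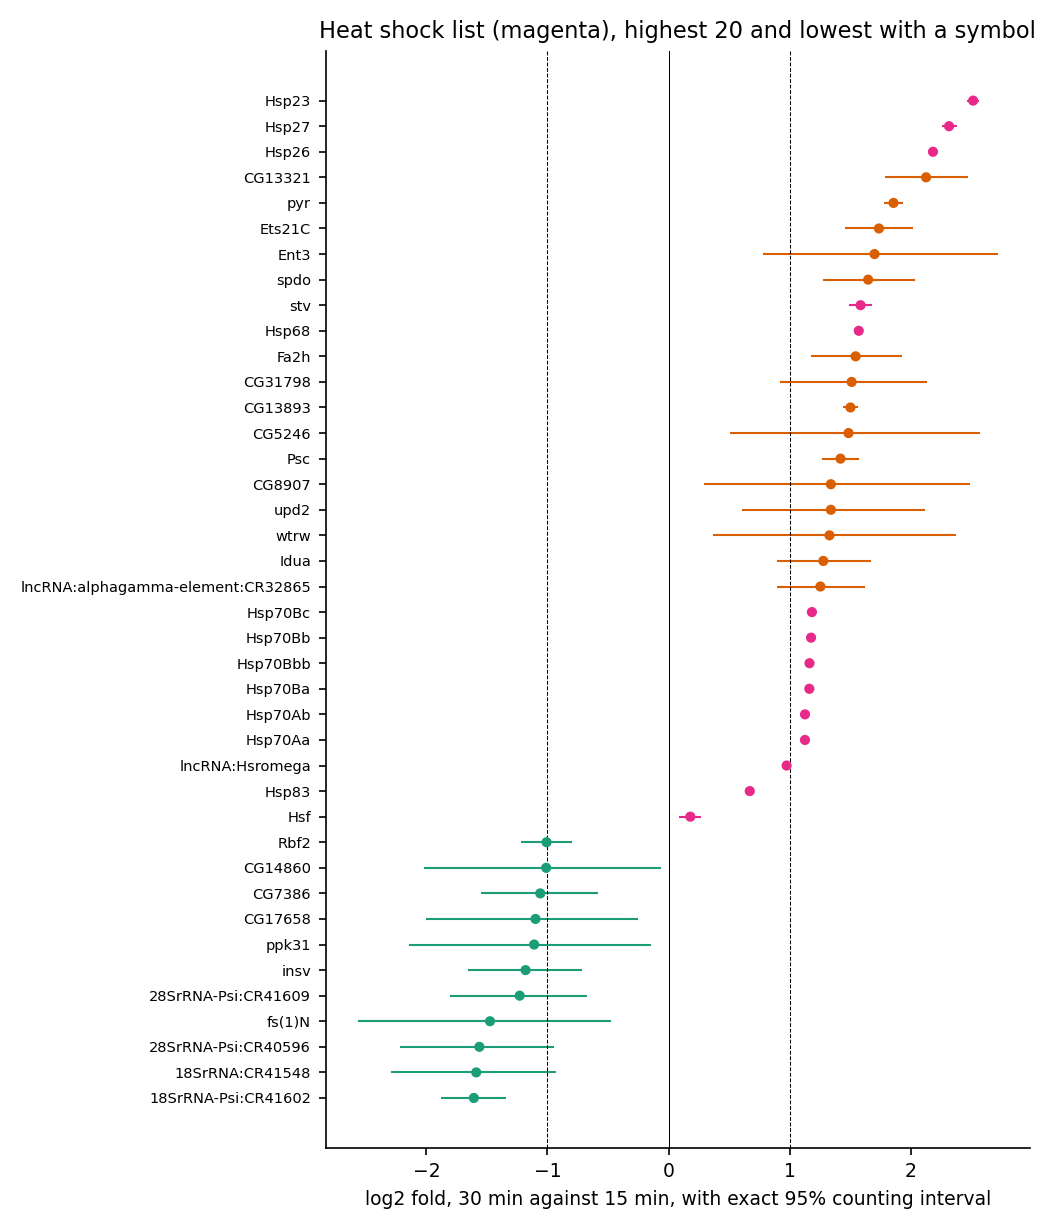
Log2 fold of 30 min against 15 min (points) with exact 95% counting intervals (bars) for the heat shock list (magenta), the other genes of the highest 20 (orange) and the 11 lower genes with a symbol (green); dashed lines mark 2-fold. The intervals of Hsp23, Hsp27 and Hsp26 lie wholly above 2, while those of CG5246, CG8907 and wtrw reach from below 0.6 to above 2.3.

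Some of the higher genes belong to families that can be read whole, taken by name after their values were seen. Glutathione S-transferases attach glutathione to reactive compounds, and 24 of their 27 measured genes had a log2 fold above 0, against 47.8% of all measured genes, with a median of 0.12. With libraries scaled by total gene counts 19 were above 0. GstE7 was past the rule, at 1856 and 3935 counts (1.02, 0.94 to 1.10), and GstD4, GstE3, GstD2 and GstE5 were past 1.5-fold. Both trehalose transporter genes were near 2-fold: Tret1-2 had 1.07 (0.59 to 1.57) and Tret1-1, with more reads, 0.94 (0.85 to 1.02). Of 16 measured antioxidant genes in the detoxification list 0 were past the rule, against 0.713% higher and 0.42% lower of all measured genes. Their median was 0.06.

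Most of the lower calls were not annotated as protein coding, and the type of those with no symbol is not known here. Of the 33 lower genes 7 are annotated as protein coding, 4 are annotated as ribosomal RNA genes or their pseudogenes and 22 have no symbol in the name tables. The protein-coding genes had log2 folds from -1.01 for Rbf2 to -1.47 for fs(1)N, and 4 of them had a mean under 50 counts. The 26 others went from -1.06 to -2.54.

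Rbf2, a gene of the retinoblastoma family of cell cycle repressors, was the protein-coding lower call with the most reads. It had 546 and 283 counts, 18.4 CPM and 9.15 CPM, a log2 fold of -1.01 (-1.22 to -0.80), or -0.99 and not called with DESeq2 size factors. The gene insv, which encodes a BEN-domain repressor, had 124 and 57 counts (-1.18, -1.66 to -0.72), and CG7386 had 112 and 56 counts (-1.06, -1.55 to -0.58). The other four were fs(1)N with 32 and 12 counts (-1.47), CG17658 with 37 and 18, ppk31 with 29 and 14, and CG14860 with 29 and 15, which was not called with DESeq2 size factors either (-0.998).

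Highly expressed genes were lower by less than 2-fold, and stg was the clearest of them. It encodes the Cdc25 phosphatase that triggers entry into mitosis, and it had 3179 and 1812 counts, 107 CPM and 58.6 CPM, a log2 fold of -0.87 (-0.95 to -0.79). In DMSO it was at 116 CPM and at 60 min at 58.2 CPM. Another of the 25 measured cell cycle genes, CycB3, was at -0.34 (-0.58 to -0.11), and the list median was -0.05. In that list 0 were called in either direction at 2-fold, against 0.713% higher and 0.42% lower of all measured genes. The pseudokinase gene trbl, whose product promotes the breakdown of the stg protein in fly embryos, was among the higher genes, with 36.2 CPM and 79.1 CPM (1.13, 1.02 to 1.23).

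Other lower genes with a fold past 1.5 were chosen after their values were seen. The zinc finger gene cbt, a member of the early transcription factor list, was at 62.5 CPM and 36.7 CPM (-0.77, -0.88 to -0.66), with 53.7 CPM in DMSO and 42.2 CPM at 60 min. Tgi, which restrains the transcription factor complex of Yorkie and Scalloped, was at 121 CPM and 77.1 CPM (-0.65, -0.72 to -0.57). Among protein-coding genes whose mean reached 100 counts, 84 were past 1.5-fold on the higher side and 19 on the lower side.

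Ribosomal RNA makes up most of a cell's RNA, and poly(A) selection is meant to remove it. The 107 IDs annotated as ribosomal RNA genes or pseudogenes had 873 counts at 15 min and 417 at 30 min in sum, 29.4 CPM and 13.5 CPM, a log2 fold of -1.13 (-1.30 to -0.96). A fold below 0 was found for 5 of the 6 measured ones. The one with the most reads, 18SrRNA-Psi:CR41602, had 465 and 159 counts (-1.61, -1.88 to -1.35), after 4772 in DMSO and before 149 at 60 min. These copies are near identical, so reads may be split between them.

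The 22 lower IDs without a symbol had from 38 to 249 counts at 15 min and from 12 to 65 at 30 min. In DMSO they had from 284 to 2052 counts and at 60 min from 15 to 80. Examples are FBgn0085769 with 78 and 14 counts (-2.54, -3.47 to -1.71) and FBgn0085757 with 148 and 30 counts (-2.36, -2.98 to -1.79). Both copies of 7SL RNA, the noncoding RNA of the signal recognition particle, were lower too, at -0.66 and -0.78 on the log2 scale. The annotated ribosomal RNA reads thus moved with these calls, and their part in them was not tested.

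The calls of the step can be set beside the comparison of 60 min with DMSO, which shares no library with it. In that comparison 1463 of the same 7856 genes were called higher (18.6%) and 1061 lower (13.5%). Of the 56 genes higher in the step 49 were among the 1463, which is 87.5% of the first and 3.35% of the second set, and 1 was among the lower ones. The 7 genes not among the 1463 all had a mean under 50 counts, and were CG5246, Cp18, CG14326, Ir68a, Or85f, osy and FBgn0085803. Of the 33 lower genes 30 were among the 1061, 90.9% of the first and 2.83% of the second set. Of these, 26 were those not annotated as protein coding, and 4 were the protein-coding genes Rbf2, insv, CG7386 and CG17658. The 22 IDs without a symbol had at least 284 counts in DMSO and at most 80 at 60 min. All rRNA-annotated IDs summed to 426 CPM in DMSO, and to 29.4, 13.5 and 9.73 CPM at 15, 30 and 60 min. Reads not aligned were also most frequent in DMSO (44.1%). How far the make-up of the DMSO library sets this overlap was not tested.

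Ribosomal protein genes were close to level, and several other lists had 0 genes called. With 0.713% of all measured genes called higher and 0.42% lower, 0 calls in a short list says little. Some members of these lists lay clearly off 0 without reaching 2-fold. The 73 measured cytosolic ribosomal protein genes lay between -0.12 for RpS19a and 0.08 for RpL4, with a median of -0.01 and 0 called. The 6 largest losses in CPM of the step were all of this kind (RpL5, RpS19a, RpL3, RpS28b, RpS27A and RpS25). The sign of such small values turned with the scaling: 28 of the 73 were above 0, against 5 with libraries scaled by total gene counts and 43 with DESeq2 size factors. The 14 mitochondrially encoded transcripts had a median of 0.07, with 0 called. Of 22 genes of Pol II pausing and elongation 0 were called, from Larp7 at -0.25 to lilli at 0.25, with a median of -0.05. Of 11 ecdysone response genes 0 were called, with a median of 0.12, and they ran from Eip75B at -0.52 to ImpL2 at 0.60. Of 18 insulin, TOR restraint and FOXO genes 0 were called, and the highest was Thor, the gene of the translation repressor 4E-BP, at 0.66 (0.59 to 0.72). Of 21 NF-kB immune genes 0 were called, with Myd88 at 0.57 (0.48 to 0.66) and dl at 0.46 (0.39 to 0.53) highest.

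Actin cytoskeleton genes were called in 0 of 23 cases, with a median of 0.15, Rac2 at 0.51 (0.42 to 0.60) and Vinc, the gene of vinculin, at 0.43 (0.37 to 0.49). The lists of glycolysis and hypoxia, ribosome biogenesis, metallothionein and reference housekeeping genes had 0 called of 12, 20, 3 and 9, and their medians were 0.05, -0.04, 0.11 and 0.04. The integrin subunit gene mys of the crystal cell and lamellocyte list was at 0.38 (0.33 to 0.42), with 0 of 5 members called. In all, 19 of the 29 lists had no member past 2-fold. The 504 distinct measured members of all lists gave 22 higher and 0 lower calls, against 0.713% and 0.42% of all measured genes. Lists were matched by symbol, so the 22 of the 33 lower genes that have no symbol could not be members.

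Gene length had little bearing on the step. Across the 7209 genes with a length in a later annotation, Pearson's r of the log2 fold with log2 exon length was 0.11, and with log2 gene span 0.17. Genes are not independent replicates, and all points share the same 2 libraries. For the log2 folds of 15 min against DMSO and of 60 min against 30 min, each of which shares a library with this step, r with log2 exon length was 0.48 and 0.68. By gene span, the median log2 fold of the step went from -0.04 for 2706 genes under 2 kb to 0.11 for 118 genes of 50 kb or more. Of the 51 higher genes with a symbol, the median span was 2.93 kb, against 2.62 kb over all measured genes. Of the 118 genes of 50 kb or more 0 were called higher. With 0.713% of all measured genes called higher, 0 in a group of this size says little.

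**Figure D5:**
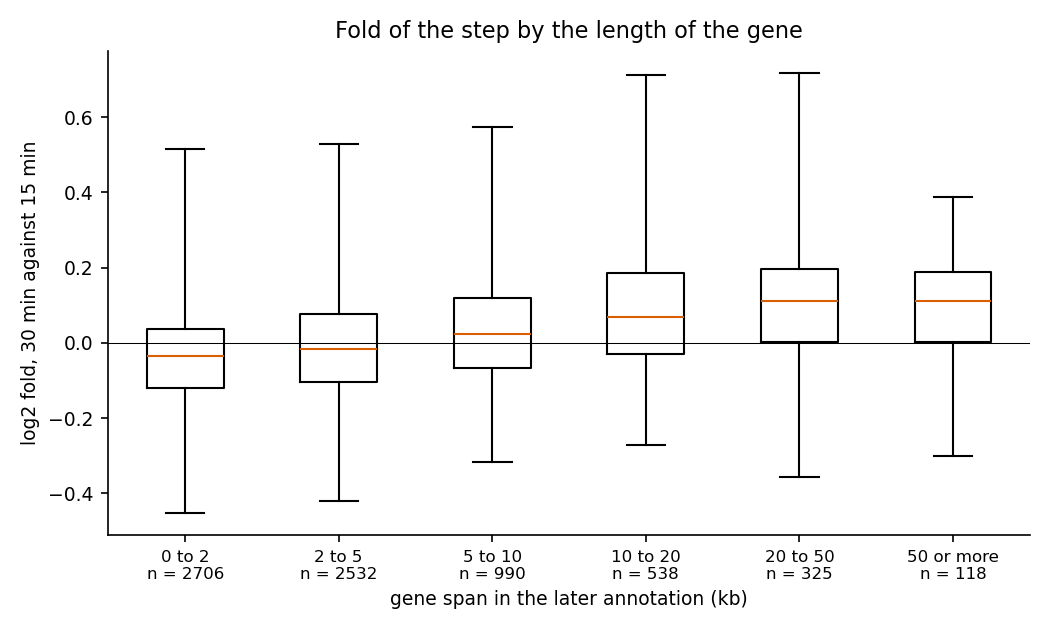
Log2 fold of 30 min against 15 min by gene span in the later annotation: boxes give the quartiles with the median in orange, and whiskers the middle 95% of genes. Medians lie between -0.04 for the shortest and 0.11 for the longest genes.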

How the data were processed

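Polyadenylated RNA of S2 cells was sequenced in 4 libraries, 1 per condition, per the labels' protocols (TRIzol extraction, Illumina TruSeq). The authors deposited raw counts per FlyBase gene, not normalised. Per the submitters' processing notes Bowtie, HTSeq and the build dm3 were used. The sources used here give no version, strand setting or annotation release, so reads of overlapping or antisense genes may not be told apart. The 5 HTSeq entries that name no gene were left out. Beside reads not aligned, they held 12.1% (15 min) and 11.6% (30 min) of reads in no feature and 1.09% and 1.03% that were ambiguous. Library sizes were scaled by TMM (edgeR 4.0.16, R 4.3.3) with the 15 min library as reference, giving CPM. Log2 folds carry Clopper-Pearson 95% intervals (scipy 1.17.1) of the share of a pair's counts. Of the IDs 13524 had a symbol in the name table, and 91.8% of measured genes an exon length in Ensembl 115 (BDGP6), so no coordinates are printed.

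Gene lists, 29 with 637 symbols of which 69 matched no ID, and members were chosen with earlier results of these data known. The genes named were the 20 highest and the lowest 12 (11 existed) with a symbol, every heat shock member, up to 4 called members per other list or else the 2 furthest from 0, the largest gains and losses in CPM (named where they bear on a result), and up to 2 IDs without a symbol per direction. Genes outside this rule were chosen after their values were seen.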

Additional observations from a re-analysis of the deposited data

How the results depend on the processing

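Library size by total gene counts, by DESeq2 1.42.0 size factors, or by totals without the heat shock list and the 50 most abundant other genes gave 51, 62 and 53 higher and 35, 31 and 35 lower genes, shifting the median by at most 0.05 in size on the log2 scale. The Hsp70 log2 fold was 1.09, 1.16 and 1.11 under these. Without a count filter 99 genes were higher and 60 lower, with a mean of at least 100 counts 34 and 5, at 1.5-fold 166 and 72, and with the interval wholly beyond 2-fold 24 and 11. With the exon length relation removed, over the 7209 genes with a length, 11 were lower and 54 higher, of which 10 and 49 were called without it. Among protein-coding genes 7 were lower and 50 higher. Those alternatives and the filter of 100 counts took the higher share of calls from 62.9% to 83.1%, 87.7% and 87.2%. At 1.5-fold 34 list members were higher and 3 lower. The heat shock list gave between 11 and 13 higher members under each of these. Without mitochondrially encoded transcripts and IDs of no symbol its share of counts was 1.80% at 15 min and 3.58% at 30 min. No named gene that was called changed sign under the scalings and the length correction, but these shifts were too small to turn a 2-fold difference. Named genes past the rule numbered 49, and 48, 47 and 48 under the scalings in the order above. Not called under at least 1 scaling were rpr, Rbf2 and CG14860. No paired analysis was possible because each condition has 1 library. Calls were more frequent at low depth: 5.28% of genes with a mean of 20 to under 50 counts were called, against 0.59% of those with 2000 or more. The type of ID, such as those with no symbol, was not tested apart from depth.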
